A study of Mus musculus with 48 samples.

Results

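Visceral white fat of male mice lacking cystathionine gamma-lyase was compared with that of wild-type male mice while both ate a diet without cystine. The comparison used 8 of the 48 RNA-seq libraries of the study: 4 from Cth-/- mice (replicates 16, 17, 18 and 20) and 4 from Cth+/+ mice (replicates 7, 8, 10 and 11), chosen by tissue, genotype and diet in the sample labels. In the whole study, brown (BAT), visceral (EFAT) and subcutaneous (SFAT) fat of both genotypes was sampled after 6 days on a control diet (CTRL) or the cystine-free diet (CysF), which gives 12 groups of 4 libraries. The depots were snap frozen, and poly(A) libraries were sequenced. The genotype is given without restriction to a tissue. Neither the mice's age, the strain background nor whether each number is a separate animal is given in the labels, so p-values measure only the spread between these samples.

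Cth encodes cystathionine gamma-lyase, the last enzyme of transsulfuration, which makes cysteine from the sulfur of methionine. A mouse without it depends on cystine and cysteine in the diet, so the cystine-free diet removes both sources in Cth-/- mice and only the dietary one in Cth+/+ mice. Cysteine is used for protein, glutathione, coenzyme A, taurine and iron-sulfur clusters. Visceral white adipocytes store triglyceride, made from glucose or from circulating fatty acids, release it again by lipolysis under adrenergic control, and secrete hormones such as leptin and adiponectin. Cholesterol and fatty acid synthesis genes are transcribed under the SREBP factors, and the collagen scaffold around adipocytes is made mainly by fibroblasts and adipocyte progenitors.

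The 8 libraries held 18.7 to 32.4 M assigned reads each, against 16.2 to 46.0 M over all 48. Levels are given in CPM (read counts scaled to the library total, with TMM factors), in the order of replicates 7, 8, 10 and 11 for Cth+/+ and 16, 17, 18 and 20 for Cth-/-. Differences are log2 fold changes, Cth-/- minus Cth+/+, ± their standard error, from edgeR's quasi-likelihood test with Benjamini-Hochberg adjustment over all genes tested. A gene is said to rise or fall where the adjusted p is under 0.05. The targeted gene itself, Cth (chromosome 3, 157894248 to 157925077, minus strand, GRCm38), stood at 9.44, 14.1, 9.27 and 13.7 CPM in Cth+/+ and 0, 0.148, 0.0477 and 0 CPM in Cth-/-. The Cth+/+ libraries held 202 to 388 Cth reads and the Cth-/- libraries 0 to 3, a log2 fold change of -7.89 ± 0.63 (adjusted p = 3.7e-06), so every library matched its genotype label.

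The tissue label was checked against marker genes. Adipocyte identity genes summed to 43440 to 61260 CPM in Cth+/+ and 40360 to 45340 CPM in Cth-/-, and Adipoq, which encodes adiponectin, stood at 1615, 1319, 2611 and 1639 CPM in Cth+/+ and 2277, 2009, 2106 and 2023 CPM in Cth-/-. In 3 libraries, transcripts of other tissues stood out. Cth+/+ replicate 11 held brown fat and muscle transcripts: the 14 brown fat markers summed to 194, 371, 253 and 819.8 CPM in Cth+/+ and 272 to 323 CPM in Cth-/-, and the 18 muscle markers to 47.5, 82.6, 88.6 and 173 and 24.4 to 28.5 CPM. Ucp1, the uncoupling protein that defines brown fat, stood at 0.0467, 0, 0 and 183 CPM in Cth+/+ and 0.235, 1.58, 0.0954 and 0.234 CPM in Cth-/-. Cth-/- replicates 16 and 20 held the most transcripts of epididymal epithelium, whose 17 markers summed to 86.9, 93.2, 10.3 and 1.38 CPM in Cth+/+ and 588, 72.8, 75.3 and 1945 CPM in Cth-/-. Of those 17 genes, 4 of 7 tested rose (Crisp1, Adam7, Rnase10 and Teddm2), and Defb2, Spint4 and Spinkl were at 0 in all 8 libraries. The part of these tissues in the results was tested only by leaving the 3 libraries out, and the named genes and lists whose calls rest on them are given without them as well. Without replicates 16 and 20, Crisp1, Adam7 and Rnase10 were not called, and without replicate 20 alone Crisp1 (adjusted p = 0.067) and Adam7 (adjusted p = 0.05, just above the threshold) were not.

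**Figure D1:**
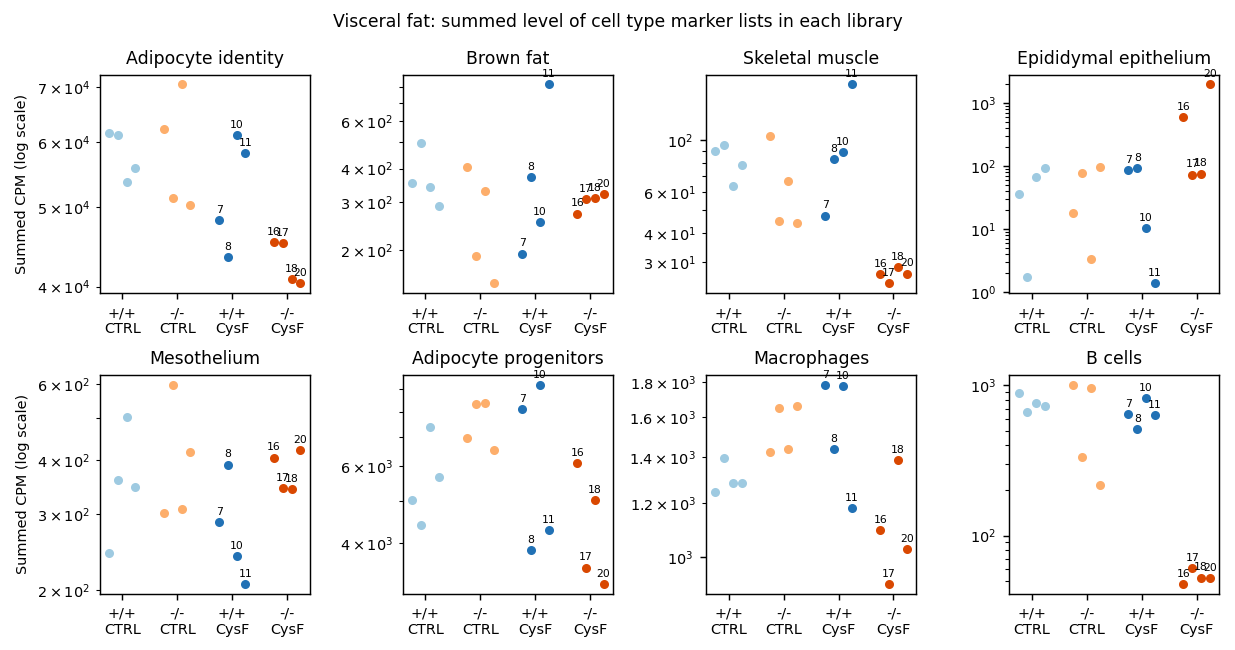
Summed level (CPM, log scale) of 8 marker lists in each of the 16 visceral fat libraries, by genotype and diet, with replicate numbers on the cystine-free diet. Replicate 11 lies above the other Cth+/+ CysF libraries for brown fat and muscle, replicates 16 and 20 lie highest for epididymal epithelium, and the 4 Cth-/- CysF libraries lie below all others for B cells.

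A further split is not in the labels. Reads of the processed pseudogene Gm43512 were under 0.1 CPM in some libraries (set A) and above it in others (set B). Visceral libraries of set B stood at 2.83 to 28 CPM, except Cth+/+ CTRL replicate 2, which at 0.119 CPM lay just above the cutoff. Its placement in the other set was not tested. All 4 Cth+/+ CysF libraries were in set A, as was Cth-/- replicate 16, while Cth-/- replicates 17, 18 and 20 were in set B. On CTRL, Cth+/+ replicates 1, 2 and 4 and Cth-/- replicate 15 were in set B. Cth+/+ replicate 3 and Cth-/- replicates 12, 13 and 14 were in set A. Set B thus leaned to Cth+/+ on CTRL and to Cth-/- on CysF. A set difference therefore enters the genotype comparison on each diet and the interaction. What the sets are is unknown, and genotype and set can be told apart only through replicate 16 and the CTRL libraries. With the set as a term in the fit, 368 genes had a set difference, 157 of which were also called for genotype.

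Loss of Cth on the cystine-free diet moved a large part of the transcriptome of visceral fat. Of 17248 genes tested, 6841 passed (39.7%), of which 3459 were higher in Cth-/- (20.1%) and 3382 lower (19.6%), with a median log2 fold change of 0.07 over all genes. Without Cth+/+ replicate 11, 5669 of 17571 passed (32.3%), 2810 higher (16.0%) and 2859 lower (16.3%), and 5368 genes passed both ways with the same sign. Without replicates 11, 16 and 20 together the count was 4345. With adjustment for the library set it was 3613, and over set A libraries alone, which leave 1 Cth-/- CysF library, it was 85. On the control diet, the same genotype comparison called 8 of 17248 genes (0.0464%), with 1070 at an unadjusted p under 0.05 and 41 called by DESeq2. Those 8 were Cth, the clock genes Arntl, Dbp, Tef and Cry1, and Gpr160, Dtx4 and Osgin1. All but Cry1 were also called on CysF. Each group of genes is read against the shares of 20.1% higher and 19.6% lower.

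**Figure D2:**
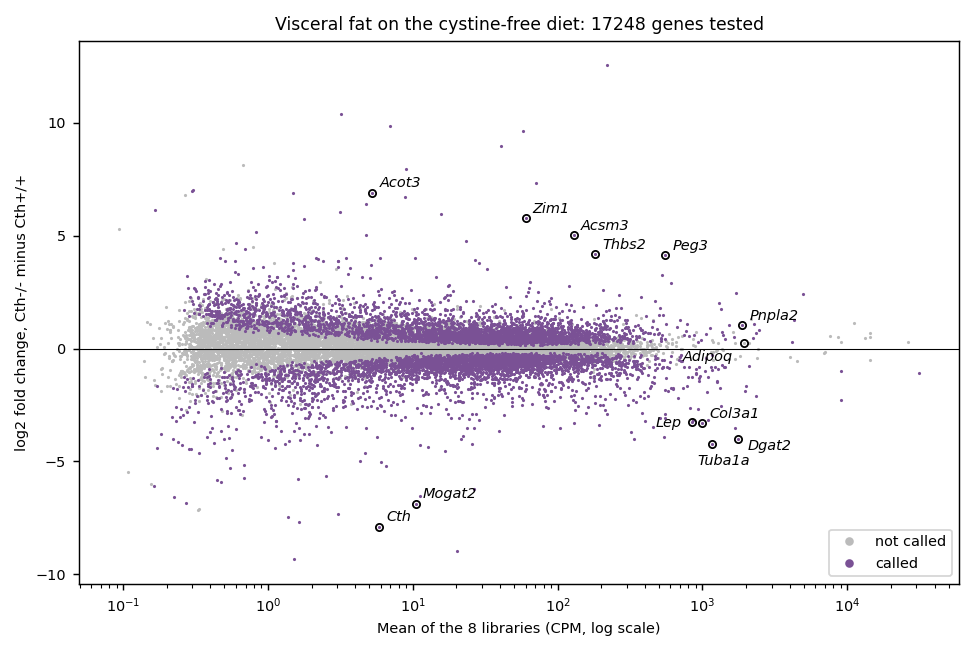
Log2 fold change (Cth-/- minus Cth+/+, cystine-free diet) of the 17248 genes tested against their mean level over the 8 libraries (CPM, log scale), with called genes in purple. Dgat2, Lep, Col3a1 and Tuba1a are abundant genes among the falls, and Zim1, Acsm3, Thbs2 and Peg3 are among the rises.

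Cholesterol synthesis was the list with the highest share of members called. Of its 24 genes, 23 fell and 0 rose, with a median log2 fold change of -2.08. Insig1, which holds SREBP precursors in the endoplasmic reticulum and is itself an SREBP target, stood at 329.8, 799.7, 451 and 1324 CPM in Cth+/+ and 78.7, 76, 84.9 and 76.8 CPM in Cth-/-, a log2 fold change of -3.20 ± 0.52 (adjusted p = 0.00046). The groups did not overlap, and within Cth+/+ replicates 8 and 11 were higher than 7 and 10. Fdps, which makes farnesyl diphosphate, fell by 2.96 ± 0.54 on the log2 scale. Mvd, the mevalonate diphosphate decarboxylase, fell by 2.64 ± 0.51 and Hmgcs1 by 1.76 ± 0.24. Srebf2, which encodes the transcription factor, had a smaller fall of 0.44 ± 0.13. Fdft1, squalene synthase, was the exception at 0.13 ± 0.24 (adjusted p = 0.69). The number that fell was 21 without replicate 11, 19 without replicates 11, 16 and 20, and 18 with adjustment for the library set.

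The start-site regions of these genes were read from the RefSeq promoter table (GRCm38.p6), which held 16 of the 24 genes. The CCAAT box, the site of NF-Y, a factor that works beside SREBP at many sterol genes, was present on either strand in 16 of 19 promoters of the list (84.2%), against 37.4% of all 32851 promoters of the same length. The sterol response element TCACNCCAC was present in 1 of 19 (5.26%), against 1.24% of all promoters. In the lipogenesis list, CCAAT was in 13 of 21 promoters (61.9%) and TCACNCCAC in 1 (4.76%). These letters describe the sequences, and a match is not evidence of binding. The 250 bases before the RefSeq start are shown for the 4 genes with the largest falls among those in the table, because they carry the shared motif: Insig1 (chr5:28071162-28071411, plus strand), Mvd (chr8:122443423-122443672, minus strand), Pmvk (chr3:89454291-89454540, plus strand) and Idi1 (chr13:8885356-8885605, plus strand). Promoters on 1 chromosome were not considered for printing. Capitals mark the CCAAT box, which reads ATTGG on the opposite strand.
Insig1: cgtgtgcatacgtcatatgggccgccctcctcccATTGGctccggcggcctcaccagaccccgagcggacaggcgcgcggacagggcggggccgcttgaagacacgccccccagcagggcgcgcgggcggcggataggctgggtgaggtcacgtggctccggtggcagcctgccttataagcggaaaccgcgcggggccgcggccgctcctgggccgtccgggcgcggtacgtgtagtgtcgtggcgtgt
Mvd: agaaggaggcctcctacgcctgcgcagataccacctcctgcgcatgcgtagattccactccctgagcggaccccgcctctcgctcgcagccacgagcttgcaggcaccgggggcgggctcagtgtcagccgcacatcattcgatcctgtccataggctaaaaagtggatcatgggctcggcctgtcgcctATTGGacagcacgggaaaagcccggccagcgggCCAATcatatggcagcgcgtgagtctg
Pmvk: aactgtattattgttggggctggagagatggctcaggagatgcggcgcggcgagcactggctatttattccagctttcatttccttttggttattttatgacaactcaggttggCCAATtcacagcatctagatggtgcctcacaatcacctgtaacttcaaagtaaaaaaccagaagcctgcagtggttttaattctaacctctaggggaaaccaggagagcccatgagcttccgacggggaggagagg
Idi1: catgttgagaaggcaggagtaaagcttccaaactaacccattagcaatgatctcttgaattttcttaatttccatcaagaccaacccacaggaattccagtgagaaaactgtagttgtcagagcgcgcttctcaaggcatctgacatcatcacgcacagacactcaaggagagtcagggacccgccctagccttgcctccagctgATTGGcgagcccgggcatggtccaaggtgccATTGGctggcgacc
Insig1 and Pmvk held 1 CCAAT box each, and Mvd and Idi1 held 2 each. Pmvk had 2 promoters in the table, and a promoter with the motif was preferred, so its box is partly due to that choice. Pmvk, the phosphomevalonate kinase, fell by 2.56 ± 0.42 and Idi1, the isopentenyl diphosphate isomerase, by 2.47 ± 0.37 on the log2 scale.

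Most genes of fatty acid synthesis also fell. Of 20 tested, 13 fell and 3 rose, with a median of -1.63. Acss2, which makes acetyl-CoA from acetate, stood at 159, 739, 255 and 1232 CPM in Cth+/+ and 57.2, 47, 39.8 and 39.2 CPM in Cth-/-, a log2 fold change of -3.70 ± 0.77 (adjusted p = 0.0021). Pnpla3, a lipid droplet protein under SREBP-1c and ChREBP, stood at 619, 698, 1016 and 1023 CPM in Cth+/+ and 136, 76.6, 37.3 and 52 CPM in Cth-/- (-3.48 ± 0.38, adjusted p = 3.4e-05). For both genes every Cth-/- library was below every Cth+/+ library. Acly, which makes cytosolic acetyl-CoA from citrate, changed by -3.51 ± 0.78 and Elovl6, an elongase, by -3.41 ± 0.77. Fasn, the fatty acid synthase, stood at 8794, 16160, 14260 and 20500 CPM in Cth+/+ and 5791, 3744, 886 and 2048 CPM in Cth-/-, a change of -2.26 ± 0.66 (adjusted p = 0.015). The Fasn groups did not overlap either, and the Cth-/- libraries spanned 885.7 to 5791 CPM. Scd1, the stearoyl-CoA desaturase, changed by -1.10 ± 0.35 (adjusted p = 0.022), and was not called without replicate 11 (-0.89, adjusted p = 0.072), 18 (-1.05, adjusted p = 0.051) or 20 (-1.09, adjusted p = 0.053). The 3 that rose were Acacb, the mitochondrial acetyl-CoA carboxylase that restrains fatty acid oxidation (1.24 ± 0.27), Mlxipl, which encodes ChREBP (0.77 ± 0.24), and the desaturase Fads1 (0.35 ± 0.09). With adjustment for the library set, 2 higher and 6 lower members passed, Fasn and Acly not among them, and without replicates 11, 16 and 20, 3 higher and 7 lower.

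In triglyceride assembly more genes fell than rose. Of 16 genes, 8 fell and 2 rose (median -0.34). Dgat2 (chromosome 7, 99153658 to 99182719, minus strand), which adds the last acyl chain to diacylglycerol, stood at 2531, 3241, 2961 and 4605 CPM in Cth+/+ and 283, 232, 166 and 155 CPM in Cth-/-, a log2 fold change of -4.00 ± 0.47 (adjusted p = 4.8e-05). Agpat2, the acyltransferase of the second step, stood at 747, 858, 679 and 1579 CPM in Cth+/+ and 150, 129, 113 and 121 CPM in Cth-/- (-2.91 ± 0.42, adjusted p = 0.00022). The monoacylglycerol acyltransferase gene Mogat2 was at 3.83, 31.2, 6.18 and 41.9 CPM in Cth+/+ and 0.201, 0.197, 0.143 and 0.140 CPM in Cth-/-, a change of -6.88 ± 1.07 (adjusted p = 0.00035). All 3 genes were lower in every Cth-/- library than in any Cth+/+ library. Mogat1 changed by -2.70 ± 0.31 and Gpd1, which supplies glycerol 3-phosphate from glucose, by -1.73 ± 0.39. Pck1, the enzyme of glyceroneogenesis, rose by 2.03 ± 0.41 and Gpat4 by 0.41 ± 0.14. Dgat1, the other enzyme of the last step, was at -0.22 ± 0.23 (adjusted p = 0.48). Without replicate 11, 2 higher and 6 lower members passed, with adjustment for the library set, 3 higher and 4 lower, and without replicates 11, 16 and 20, 1 higher and 4 lower.

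**Figure D3:**
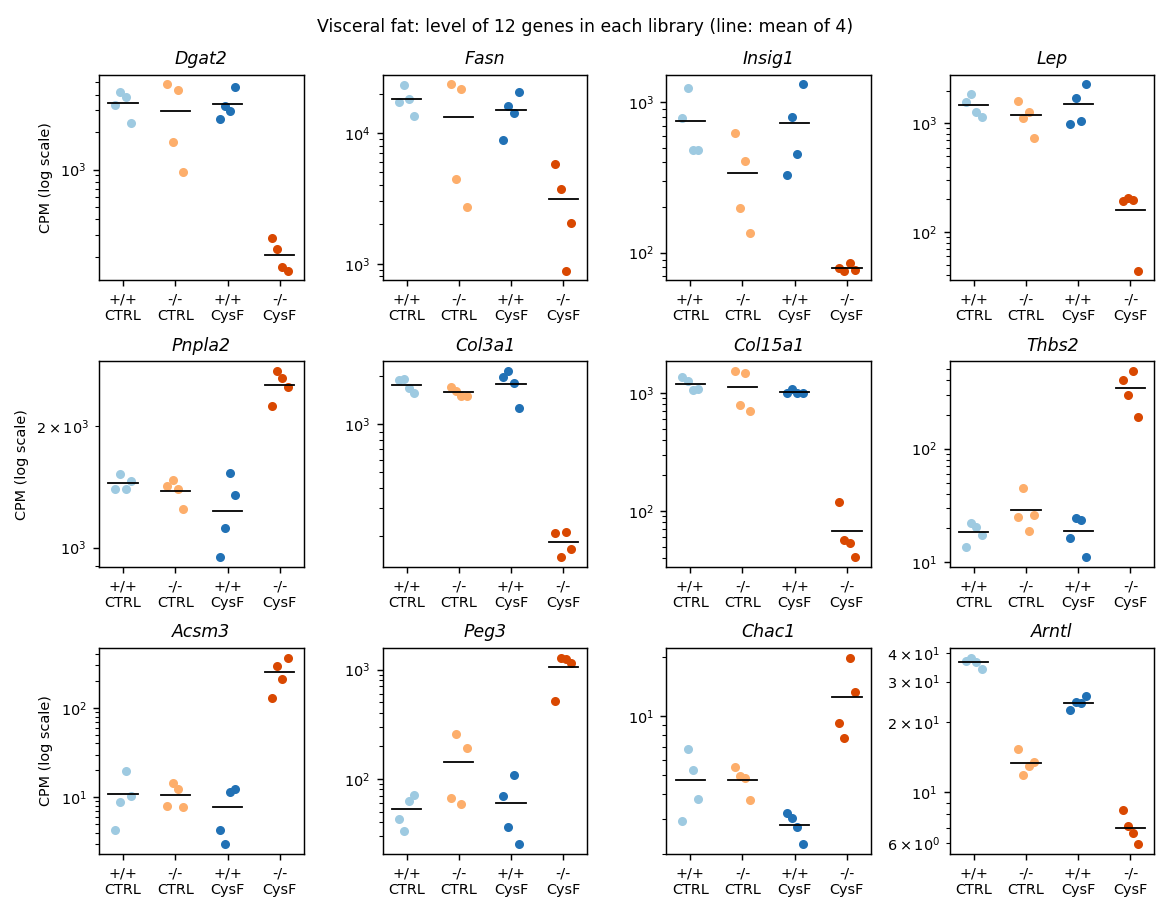
Level (CPM, log scale) of 12 genes in each visceral fat library, by genotype and diet, with the mean of 4 libraries as a line. The 4 Cth-/- CysF libraries are apart from the 4 Cth+/+ CysF libraries for all 12 genes, and for Arntl the genotypes are also apart on the control diet.

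Genes of fat release moved both ways. Of 22 lipolysis and lipid droplet genes, 5 rose and 7 fell (median -0.24). Pnpla2 (chromosome 7, 141455198 to 141460743, plus strand), the triglyceride lipase ATGL, stood at 946, 1115, 1525 and 1347 CPM in Cth+/+ and 2234, 2734, 2616 and 2488 CPM in Cth-/-, a rise of 1.03 ± 0.14 (adjusted p = 0.00015) with no overlap. Adrb3, the main beta-adrenergic receptor of mouse adipocytes, was at -0.31 ± 0.29 (adjusted p = 0.41). G0s2, an inhibitor of ATGL, fell by 1.35 ± 0.29, and Plin1, the droplet coat that controls access of the lipases, fell by 0.80 ± 0.17. Lpl, the lipoprotein lipase that takes up circulating fat, fell by 1.00 ± 0.25, and Lipe, hormone-sensitive lipase, was at -0.06 ± 0.17 (adjusted p = 0.79). Without replicate 11 the counts were 5 higher and 5 lower, and without replicates 11, 16 and 20, 3 higher and 2 lower.

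Among 31 genes of fatty acid uptake, activation and oxidation, 4 rose and 6 fell (median -0.24), neither above the share over all genes. Slc27a1, a fatty acid transport protein, stood at 178, 159, 230.2 and 153 CPM in Cth+/+ and 678, 699.8, 948 and 734 CPM in Cth-/-, a rise of 2.09 ± 0.15 (adjusted p = 1.4e-06). The medium-chain acyl-CoA synthetase gene Acsm5 rose by 2.13 ± 0.24. Cpt1a, which admits long-chain fatty acids to mitochondria, fell by 0.62 ± 0.14. Pdk4, a fasting-induced brake on pyruvate oxidation, was at 1.10 ± 0.51 (adjusted p = 0.1) with all libraries and rose by 2.15 (adjusted p = 0.00074) without replicate 11. Which direction held more members of the list varied with the libraries: 7 higher and 3 lower passed without replicate 11, 5 higher and 4 lower without replicate 17, 5 higher and 10 lower without replicate 16, 4 higher and 3 lower without replicates 16 and 20, and 4 higher and 2 lower with adjustment for the library set. The median was -0.07 without replicate 11. Of 11 acyl-CoA thioesterase genes, which free coenzyme A from fatty acids, 5 rose and 3 fell (without replicate 11, 5 higher and 1 lower). Acot3 was at 0.140, 0, 0.172 and 0.0354 CPM in Cth+/+ and 4.53, 8.56, 10.1 and 18.4 CPM in Cth-/-, a rise of 6.90 ± 0.89 (adjusted p = 9.9e-05). Acot4 (1.75 ± 0.24), Acot6 (0.86 ± 0.16), Acot2 (0.77 ± 0.13) and Acot13 (0.54 ± 0.14) also rose, and Acot9 fell by 1.05 ± 0.19. Acot2, Acot3, Acot4 and Acot6 are similar copies, between which the authors' estimated counts may have divided shared reads.

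Thermogenic genes as a list were not raised in visceral fat. Of 25 tested, 3 rose and 7 fell (median 0.08), and the counts were 3 higher and 5 lower without replicate 11 and 3 higher and 3 lower without replicates 11, 16 and 20. Ucp1 did not pass the low-count filter, and its levels in the 4 Cth-/- libraries, 0.0954 to 1.58 CPM, lay above those of Cth+/+ replicates 7, 8 and 10 and below that of replicate 11. Ppargc1a, a coactivator of mitochondrial biogenesis, was at 16, 13.7, 9.83 and 18.9 CPM in Cth+/+ and 27.2, 47.2, 29.6 and 56.3 CPM in Cth-/-, a rise of 1.45 ± 0.36 (adjusted p = 0.0062) that was not called with adjustment for the library set. Dio2, which activates thyroid hormone in brown fat, was at 3.83, 7.58, 1.25 and 29.6 CPM in Cth+/+ and 0.637, 0.591, 0.668 and 0.842 CPM in Cth-/-, a change of -3.94 ± 0.83 (adjusted p = 0.0024). Without replicate 11 the Dio2 difference was -2.63 (adjusted p = 0.0073). Cidea, a brown fat marker, was at 1.82, 2.48, 1.5 and 57.1 CPM in Cth+/+ and 1.11, 1.82, 3.05 and 1.82 CPM in Cth-/-, and Elovl3, an elongase of active brown fat, at 0.234, 0.947, 0 and 11.9 CPM in Cth+/+ and 0, 0.0492, 0 and 0 CPM in Cth-/-. The Cidea difference of -3.02 ± 0.98 (adjusted p = 0.024) rested on replicate 11, without which it was 0.00 (adjusted p = 1). Cpt1b, the muscle and brown fat isoform, went from -1.84 ± 0.68 (adjusted p = 0.044) to -0.07 (adjusted p = 0.89). Of the brown fat marker list, 4 of 11 tested genes fell with replicate 11 and 2 without it.

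**Figure D4:**
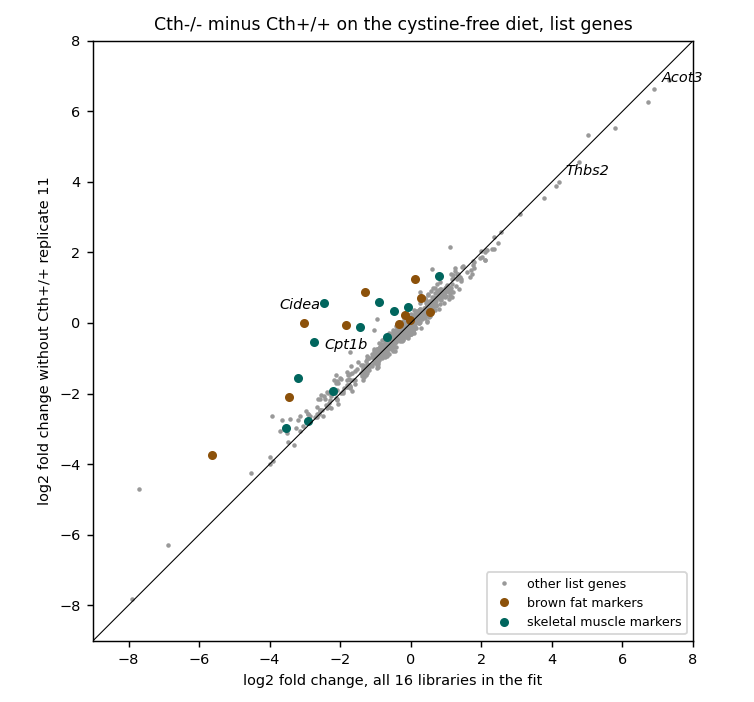
Log2 fold change of each list gene (Cth-/- minus Cth+/+, cystine-free diet) with all 16 visceral fat libraries in the fit (horizontal) and without Cth+/+ replicate 11 (vertical), with the line of equality. Brown fat and muscle markers such as Cidea and Cpt1b leave the line, while Thbs2 and Acot3 stay close to it.

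Nuclear genes of the respiratory chain were lower as a list, by a count that varied with single libraries and with the library sets. Of 71 subunit genes, 35 fell and 0 rose (median -0.52). Without replicate 11, which held the brown fat and muscle transcripts, 2 higher and 16 lower passed, and with adjustment for the library set, 0 higher and 3 lower. The number lower was 20 without replicate 17, 21 without replicate 20 and 54 without replicate 16. The 13 transcripts of the mitochondrial genome were called in neither direction by edgeR with all libraries, with 2 higher and 1 lower at an unadjusted p under 0.05 and 2 higher and 1 lower by DESeq2. By edgeR, 2 were higher without replicate 11 (median 0.87, against 0.49 with all libraries), 2 without replicate 16, 1 without replicate 18 and 3 without replicates 11, 16 and 20, and 1 was lower without replicate 7. With all libraries the adjusted p was 0.055 for mt-Nd5 and higher for the others. Their share of all reads was 4.95% to 9.48% in Cth+/+ and 4.82% to 14.7% in Cth-/-.

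Collagen transcripts fell broadly. Of 26 collagen genes tested, 17 fell and 0 rose (median -1.22), and without replicate 11 the counts were the same. Col3a1 (chromosome 1, 45311538 to 45349706, plus strand), a fibrillar collagen of soft tissue, stood at 1965, 2165, 1813 and 1255 CPM in Cth+/+ and 207, 146, 209.8 and 166 CPM in Cth-/-, a log2 fold change of -3.30 ± 0.18 (adjusted p = 2.8e-07). Col15a1, a basement membrane collagen abundant around adipocytes, was at 1000, 1087, 989.9 and 996 CPM in Cth+/+ and 120.1, 57.1, 54 and 40.4 CPM in Cth-/- (-3.90 ± 0.34, adjusted p = 8.3e-06). Col1a1, the main fibrillar collagen chain, was at 652, 583, 435 and 212 CPM in Cth+/+ and 119.7, 84.8, 101 and 144 CPM in Cth-/- (-2.07 ± 0.29, adjusted p = 0.00016). No Cth-/- library overlapped a Cth+/+ library for these 3 genes. The fibrillar Col5a3 changed by -3.06 ± 0.50 and Col6a3, a microfibril collagen of the adipocyte surface, by -2.48 ± 0.25. With adjustment for the library set, 15 collagens fell, and over set A libraries alone 3, Col3a1 and Col15a1 among them.

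Among other matrix genes more fell than rose. Of 44 tested, 21 fell and 5 rose (median -0.56). Serpinh1, the collagen chaperone HSP47, was at 384, 885, 465 and 972 CPM in Cth+/+ and 113, 94.1, 95.4 and 70.0 CPM in Cth-/-, a change of -2.86 ± 0.36 (adjusted p = 8.3e-05). Adamts5, an aggrecanase, was at 477, 553, 477 and 562 CPM in Cth+/+ and 100.2, 109, 89.6 and 65.2 CPM in Cth-/- (-2.51 ± 0.18, adjusted p = 1.2e-06). Both were lower in every Cth-/- library than in any Cth+/+ library. Fbn1, the fibrillin of microfibrils (-2.25 ± 0.31), and Sparc, a collagen-binding protein (-1.88 ± 0.17), fell as well. Against these, Thbs2 (chromosome 17, 14665500 to 14694235, minus strand), a secreted thrombospondin that restrains blood vessel growth, stood at 16.3, 24.4, 23.7 and 11 CPM in Cth+/+ and 406, 296, 486 and 191 CPM in Cth-/-, a rise of 4.19 ± 0.36 (adjusted p = 7.9e-06). Mmp11, a secreted metalloproteinase of stroma, was at 4.21, 3.93, 5.45 and 2.05 CPM in Cth+/+ and 44.6, 45.3, 82.1 and 40.7 CPM in Cth-/-, a rise of 3.77 ± 0.35 (adjusted p = 1e-05). Thbs1 (1.30 ± 0.43), the proteoglycan gene Dcn (1.05 ± 0.18) and the protease inhibitor gene Timp3 (0.94 ± 0.12) also rose. Markers of adipocyte progenitors, which make much of this matrix, summed to 3849 to 9211 CPM in Cth+/+ and 3226 to 6098 CPM in Cth-/-. Of 18 of them 8 fell and 2 rose, with Sema3c (-1.42 ± 0.26), Bmper (-1.37 ± 0.31) and Pi16 (-1.20 ± 0.17) among the falls. In bulk tissue fewer cells of a type and less RNA per cell cannot be told apart, and the part of progenitors in the collagen result was not tested.

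Hormone genes of adipocytes moved both ways. Lep (chromosome 6, 29060220 to 29073877, plus strand), which encodes leptin, the signal of fat stores, stood at 994, 1716, 1062 and 2316 CPM in Cth+/+ and 193, 206, 198 and 44.2 CPM in Cth-/-, a log2 fold change of -3.25 ± 0.44 (adjusted p = 0.00014). All Cth-/- libraries were below all Cth+/+ libraries, and replicate 20 was lowest. Adipoq was at 0.23 ± 0.19 (adjusted p = 0.36) and Pparg, the transcription factor of adipocyte identity, at -0.23 ± 0.18 (adjusted p = 0.35). Without replicate 10, Adipoq was called higher (adjusted p = 0.036). Of 21 adipokine genes, 8 fell and 3 rose (median -0.36), with the retinol carrier gene Rbp4 (-2.23 ± 0.40) and resistin, Retn (-1.27 ± 0.31), among the falls and angiotensinogen, Agt (1.43 ± 0.28), among the rises. Of 19 adipocyte identity genes, 5 fell and 2 rose, and with adjustment for the library set, 1 fell, while 8 fell without replicate 7 or 8. Among 24 genes of insulin action and glucose use, 5 rose and 7 fell, and the counts were 3 higher and 3 lower without replicate 11, 2 higher and 4 lower without replicate 20 and 3 higher and 1 lower without replicates 11, 16 and 20. Pdk2, a kinase that inhibits pyruvate dehydrogenase, was at 60.5, 54.6, 62 and 61.3 CPM in Cth+/+ and 208, 427, 325 and 458 CPM in Cth-/-, a rise of 2.57 ± 0.22 (adjusted p = 8.3e-06). The glycogen-targeting subunit genes Ppp1r3b (-3.64 ± 1.00) and Ppp1r3c (-2.18 ± 0.50) fell.

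Genes that answer to sulfur amino acid supply moved less uniformly. Of 15 genes that make or break down cysteine, 3 rose and 1 fell, the fall being Cth itself. Cbs, the enzyme before Cth in transsulfuration, was at 1.12 ± 0.40 (adjusted p = 0.039), and without replicate 11 at 0.82 (adjusted p = 0.075). Ahcy, which frees homocysteine, rose by 0.60 ± 0.14 and Sqrdl, which oxidises hydrogen sulfide, by 0.72 ± 0.15. Slc7a11, the cystine importer, was at 0.95 ± 0.49 (adjusted p = 0.14). Of 19 glutathione genes, 6 rose and 3 fell (median 0.27). Gpx3, the secreted glutathione peroxidase, stood at 682, 457, 628 and 307 CPM in Cth+/+ and 1470, 3516, 2422 and 4064 CPM in Cth-/-, a rise of 2.47 ± 0.40 (adjusted p = 0.00047). Gclc, the catalytic subunit of the first step of glutathione synthesis, was at 35.8, 36.7, 35.4 and 30.8 CPM in Cth+/+ and 58.2, 93.3, 70.1 and 91.4 CPM in Cth-/- (1.17 ± 0.16, adjusted p = 0.00017). The groups did not overlap for either gene. Dpep1, a dipeptidase of glutathione breakdown, rose by 0.94 ± 0.19 and Gpx4, the peroxidase of membrane lipids, fell by 0.68 ± 0.19. Of 17 NRF2 targets, 4 rose and 7 fell, with G6pdx (-1.03 ± 0.27) and Gsta3 (-1.01 ± 0.26) among the falls. Without replicate 11, 2 rose and 7 fell, with adjustment for the library set, 2 higher and 3 lower passed, and without replicates 11, 16 and 20, 2 higher and 2 lower.

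ATF4, the factor that lack of an amino acid induces through GCN2, had targets on both sides. Of 40 targets, 6 rose and 13 fell (median -0.18), and the counts were 3 higher and 8 lower with adjustment for the library set and 6 higher and 7 lower without replicates 11, 16 and 20. Chac1 (chromosome 2, 119351229 to 119354381, plus strand), which cleaves glutathione, was at 3.23, 3.02, 2.75 and 2.23 CPM in Cth+/+ and 9.29, 7.78, 19.9 and 13.3 CPM in Cth-/-, a rise of 2.16 ± 0.31 (adjusted p = 0.00019) with no overlap between the groups. Ppp1r15a, which ends the block on translation, rose by 1.07 ± 0.17 and Sesn2, an amino acid sensor, by 0.66 ± 0.18. Asns, asparagine synthetase, was at 0.24 ± 0.17 (adjusted p = 0.27), Atf4 itself at -0.30 ± 0.14 (adjusted p = 0.11) and Ddit3 at -0.62 ± 0.23 (adjusted p = 0.044), the last at -0.44 (adjusted p = 0.15) without replicate 11. Atf4 was called lower with no low-count filter, without replicate 8 and without replicate 18. The hormone genes Fgf21 and Gdf15 were at 0.59 ± 0.74 (adjusted p = 0.56) and 0.55 ± 0.50 (adjusted p = 0.4). Without replicates 11, 16 and 20, Fgf21 was called higher (adjusted p = 0.041). The synthesis genes Psph of serine (-2.44 ± 0.38), Pycr1 of proline (-1.29 ± 0.25) and Mthfd2 of mitochondrial folate (-1.23 ± 0.16) fell. The amino acid response element TGATGNAA was present on either strand in 12 of 40 promoters of the list (30%), against 3.97% of all promoters. Of 19 endoplasmic reticulum stress genes, 3 rose and 5 fell, among them the chaperone gene Hspa5 (-0.89 ± 0.10). With adjustment for the library set, 0 higher and 5 lower passed, and without replicate 16, 1 higher and 8 lower.

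Clock and glucocorticoid-responsive genes were raised as lists. Of 18 clock genes, 11 rose and 3 fell (median 1.07), and without replicate 11 the counts were the same. Arntl, which encodes the activator BMAL1, was at 22.7, 24.5, 24.3 and 25.9 CPM in Cth+/+ and 8.39, 7.14, 6.63 and 5.94 CPM in Cth-/-, a change of -1.79 ± 0.11 (adjusted p = 4.3e-07). Dbp, an output gene that BMAL1 drives, was at 19.7, 12.3, 16.4 and 11.5 CPM in Cth+/+ and 44.8, 73, 55.1 and 60.5 CPM in Cth-/-, a rise of 1.96 ± 0.29 (adjusted p = 0.00025). The groups were apart for both. Ciart (2.00 ± 0.35) and Nr1d1 (1.78 ± 0.25), repressors within the clock, rose, and Nfil3, the antagonist of Dbp (-2.01 ± 0.43), fell. On the control diet Arntl was already lower by 1.44 and Dbp higher by 2.03. The time of day of collection is not given in the sources used here. Of 22 glucocorticoid and fasting genes, 11 rose and 4 fell (median 0.83). Fkbp5, a direct target of the glucocorticoid receptor, was at 118, 108, 131 and 164 CPM in Cth+/+ and 258, 390.3, 402 and 410.1 CPM in Cth-/-, a rise of 1.49 ± 0.22 (adjusted p = 0.00028). Hif3a (1.30 ± 0.25), Zbtb16 (1.21 ± 0.33) and Klf9 (1.21 ± 0.16) rose with it, while Tsc22d3, another direct target, fell by 0.81 ± 0.19 and the cell cycle inhibitor gene Cdkn1a by 1.69 ± 0.39. Without replicates 11, 16 and 20, 10 higher and 0 lower passed.

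Among 16 imprinted growth genes, 7 rose and 1 fell (median 0.37). Peg3 (chromosome 7, 6703892 to 6730431, minus strand) stood at 69.5, 36.4, 108 and 25.2 CPM in Cth+/+ and 510.2, 1285, 1248 and 1141 CPM in Cth-/-, a rise of 4.13 ± 0.58 (adjusted p = 0.00018). Zim1, its neighbour in the same imprinted domain, was at 3.41, 2.33, 1.89 and 1.03 CPM in Cth+/+ and 64.6, 142, 133 and 132 CPM in Cth-/- (5.78 ± 0.63, adjusted p = 3.1e-05), and Usp29, the divergent partner of Peg3, rose by 3.11 ± 0.60. All Cth-/- libraries were above all Cth+/+ libraries for Peg3 and Zim1, and replicate 16 was the lowest of the Cth-/- libraries for both. Grb10, an adaptor that restrains insulin signalling, rose by 0.99 ± 0.13, and Ndn, a regulator of adipocyte progenitors, fell by 1.82 ± 0.24. The library preparation's use of strand is not given in the sources used here, so reads of overlapping genes in this domain cannot be told apart.

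Proliferation genes fell as a list. Of 23 tested, 19 fell and 0 rose (median -1.75). Mki67, a marker of cycling cells, was at 30.6, 80.3, 14.5 and 49.9 CPM in Cth+/+ and 1.54, 9.35, 4.15 and 5.24 CPM in Cth-/-, a change of -3.13 ± 0.62 (adjusted p = 0.0016). Top2a (-2.61 ± 0.66), Bub1 (-2.65 ± 0.76) and Foxm1 (-2.67 ± 0.48), genes of chromosome segregation and of mitotic transcription, fell as well. Without replicates 16 and 20, 6 members passed, and without replicates 11, 16 and 20, 5, with a median of -1.55.

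Macrophage markers fell, while most markers of other immune cells did not pass. Of 20 macrophage genes, 12 fell and 0 rose (median -0.68), and the list summed to 1180 to 1786 CPM in Cth+/+ and 914 to 1385 CPM in Cth-/-. Folr2, a folate receptor of resident macrophages, was at 32.2, 35.5, 34 and 32.3 CPM in Cth+/+ and 10.7, 6.54, 7.49 and 6.08 CPM in Cth-/-, a change of -2.12 ± 0.19 (adjusted p = 9.4e-06) with no overlap. Adgre1, which encodes F4/80 (-1.23 ± 0.21), the complement gene C1qa (-1.03 ± 0.12) and the mannose receptor gene Mrc1 (-0.97 ± 0.09) fell. Of 12 B cell genes 2 fell, and the summed list was 512 to 821 CPM in Cth+/+ and 47.8 to 61 CPM in Cth-/-. That sum was mostly Ighm, the heavy chain of IgM, at 613, 497, 797 and 620.3 CPM in Cth+/+ and 37.4, 46.8, 36.9 and 37.3 CPM in Cth-/-, a change of -4.00 ± 0.43 (adjusted p = 2.9e-05). Beside Ighm, Ighd fell (-0.88, adjusted p = 0.023). It was not called without replicate 11 (-0.68, adjusted p = 0.081) or without replicates 16 and 20 (adjusted p = 0.13). The B cell genes Cd79a (-0.31 ± 0.37, adjusted p = 0.52) and Ms4a1 (-0.91 ± 0.36, adjusted p = 0.058) did not pass. Of 13 mesothelial genes 4 rose, Wt1 by 0.94 ± 0.23, and the list summed to 207 to 390.4 CPM in Cth+/+ and 343 to 422 CPM in Cth-/-. Without replicate 11, 3 rose, and with adjustment for the library set, 2. Bnc1, Rspo1 and Gpm6a, which rose beside Wt1, were not called without replicates 11, 16 and 20 (adjusted p = 0.085, 0.29 and 0.093). Leaving out 1 library also ended the call of Rspo1 for replicates 10, 11, 16, 17, 18 and 20, of Gpm6a for 7 and 16 and of Bnc1 for 7. Endothelial genes were called in 2 of 16 cases with all libraries and in 0 without replicate 11. At an unadjusted p under 0.05, genes higher in Cth-/- numbered 0 in cholesterol synthesis, 1 in the respiratory chain, 0 among collagens, 0 in proliferation and 1 among macrophage markers.

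The 10 largest rises and falls were taken from genes that averaged 5 CPM or more over the 8 libraries, passed with and without replicate 11 and had groups that did not overlap. Over all genes, 34.9% had groups that did not overlap. The falls included Cth and Mogat2, described above. Among the others, Apln, which encodes the vascular peptide apelin, was at 12.9, 54.7, 11.3 and 48.7 CPM in Cth+/+ and 1.48, 1.53, 1.38 and 1.12 CPM in Cth-/-, a change of -4.53 ± 0.68 (adjusted p = 0.00027). Tuba1a, an alpha-tubulin, was at 1046, 2904, 989 and 3906 CPM in Cth+/+ and 105, 134, 114 and 121 CPM in Cth-/-, a change of -4.22 ± 0.54 (adjusted p = 9.9e-05). In both genes, as in cholesterol synthesis, Cth+/+ replicates 8 and 11 were higher than 7 and 10. The ferroxidase gene Hephl1 changed by -6.53 ± 1.38, Prnd by -5.19 ± 0.98, Odf3l1 by -5.03 ± 0.73, Ncan by -4.37 ± 0.99, Wfdc21 by -4.28 ± 0.64 and Tlcd2 by -4.24 ± 0.61. The rises held Acot3, Zim1, Peg3, Thbs2 and Mmp11, together with Acsm3 (chromosome 7, 119760923 to 119787513, plus strand), a medium-chain acyl-CoA synthetase, at 4.30, 2.95, 11.3 and 12.3 CPM in Cth+/+ and 128, 299, 211 and 368 CPM in Cth-/-, a change of 5.02 ± 0.56 (adjusted p = 3.6e-05). Vnn1, a pantetheinase that releases pantothenate and cysteamine, rose by 3.90 ± 0.69, Rassf6 by 3.68 ± 0.53 and Mycl by 3.50 ± 0.59. Teddm2, a gene of the epididymal list, was at 2.06, 2.26, 1.33 and 0.920 CPM in Cth+/+ and 51, 6.20, 7.63 and 116 CPM in Cth-/- and was highest in replicates 16 and 20. Of 165 named genes tested, 150 were called. Of these, 15 were called in all alternatives, set A libraries alone included, among them Cth, Acsm5, Adamts5, Arntl, Chac1, Col15a1, Col3a1, Folr2, Mmp11, Pdk2, Rassf6, Slc27a1, Teddm2 and Thbs2. Counting these 15, 90 kept the call in every alternative other than set A libraries alone. Other genes described above are not among the 165, and their calls without replicates 16 and 20 or with the library set are not reported. Among the 165, some genes described above were not called without replicates 16 and 20. They were, beside Crisp1, Adam7 and Rnase10, Ahcy (adjusted p = 0.054), Ppp1r3b (0.088), Bub1 (0.11), Top2a (0.073), Rspo1 (0.16), Gpm6a (0.068), Ighd, Scd1, Cbs, Cidea, Cpt1b and Ddit3. The exclusion of replicates 11, 16 and 20 also ended the calls of Fasn (adjusted p = 0.069), Lpl (0.055), G0s2 (0.081), G6pdx (0.079), Gsta3 (0.069), Nfil3 (0.078), Cdkn1a (0.051), Ppp1r3c (0.1), Bnc1 (0.085), Hephl1 (0.055) and Ncan (0.056). Leaving out 1 library ended the call of Cbs for replicates 8, 10, 11, 16, 18 and 20 (adjusted p = 0.052 to 0.14), of Ddit3 for 11, 18 and 20 (0.054 to 0.15), of Cidea for 11, 17 and 20 (0.059 to 1) and of Cpt1b for 11, 16, 17, 18 and 20 (0.069 to 0.89). With adjustment for the library set, Lpl, G6pdx, Gsta3, Ppp1r3b, Ppp1r3c, Retn and Wt1 were among the genes not called.

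**Figure D5:**
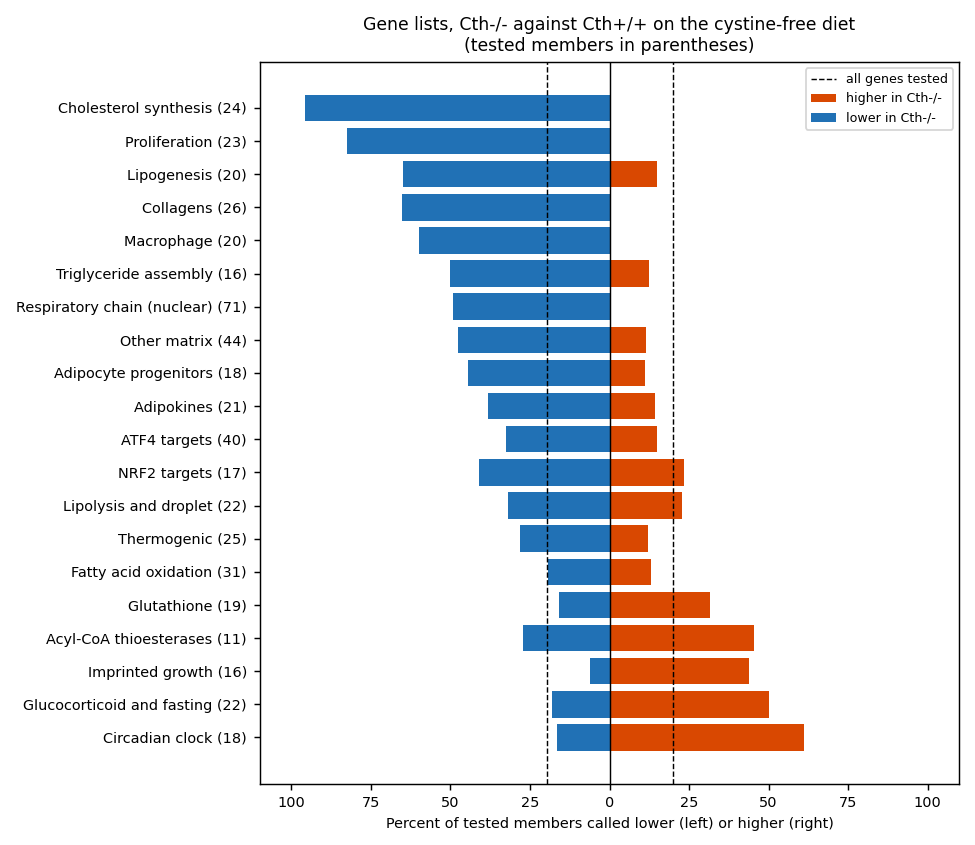
Percent of the tested members of 20 gene lists called lower (left) or higher (right) in Cth-/- than in Cth+/+ visceral fat on the cystine-free diet, with the shares over all 17248 genes as dashed lines. Cholesterol synthesis, proliferation, lipogenesis and collagens lie farthest to the left of the line for lower genes, and clock and glucocorticoid genes farthest to the right.

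Whether the genotype difference depended on the diet was tested as an interaction, the difference on CysF minus that on CTRL. It was called for 1792 of 17248 genes (10.4%), 870 more positive and 922 more negative on CysF. Collagens and matrix genes were called above that share, 12 of 26 collagens more negative and, in the matrix list, 4 more positive and 17 more negative of 44. Macrophage genes were called in 10 of 20, all more negative. Of 24 cholesterol genes 3 were called, and of 20 lipogenesis genes 3. The largest negative terms were those of Mogat2 at -5.79 ± 1.28 (adjusted p = 0.016), Odf3l1 at -4.26 ± 0.91 (adjusted p = 0.014), Wfdc21 at -3.99 ± 0.81 (adjusted p = 0.011), Col15a1 at -3.82 ± 0.45 (adjusted p = 0.00047) and Dgat2 at -3.79 ± 0.60 (adjusted p = 0.0028). The largest positive ones were those of Teddm2 at 5.17 ± 1.14 (adjusted p = 0.016), Acsm3 at 5.05 ± 0.72 (adjusted p = 0.0016), Zim1 at 4.42 ± 0.80 (adjusted p = 0.0061), Cyp2f2, a cytochrome P450, at 3.77 ± 0.94 (adjusted p = 0.025), and Thbs2 at 3.55 ± 0.47 (adjusted p = 0.001). Lep differed by -2.94 ± 0.58 (adjusted p = 0.0091) and Pnpla2 by 1.09 ± 0.20 (adjusted p = 0.0061). On CTRL, Dgat2 stood at 3290, 4203, 3816 and 2368 CPM in Cth+/+ replicates 1 to 4 and at 4868, 1654, 4378 and 957 CPM in Cth-/- replicates 12 to 15, with replicates 13 and 15 lower. Insig1 was at 780.3, 1238, 481 and 485 CPM and 622, 198, 405 and 135 CPM in those libraries. Without replicate 11, 1252 genes were called, and without replicates 11, 16 and 20, 1326, Mogat2 (adjusted p = 0.078), Odf3l1 (0.058) and Teddm2 (0.071) not among them. The library sets were spread over the genotypes in opposite ways on CTRL and CysF, and the terms above are without the set. With adjustment for the library set 57 genes were called. Which of the genes named above were among them is not reported.

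The same genotype comparison on CysF was set against that in subcutaneous fat, as EFAT difference minus SFAT difference, in a fit of the 24 CysF libraries. It differed for 1485 of 17563 genes (8.46%), 422 more positive in EFAT and 1063 more negative. Respiratory chain genes were the clearest list, with 63 of 71 more negative in EFAT and 0 more positive. Their median difference was -0.62 in EFAT and 0.80 in SFAT in that fit. Neither this depot difference nor that against BAT was fitted with the library set as a term. In the fit of the EFAT libraries, that term took the list from 35 genes lower to 3. Thermogenic genes followed, 17 of 29 more negative, with medians of -0.16 in EFAT and 1.76 in SFAT, and so did 20 of 31 fatty acid oxidation genes. Collagens were called in 10 of 27, all less negative in EFAT (medians -1.25 and -2.06). Without EFAT replicate 11, 687 genes were called, among them 52 respiratory chain, 13 thermogenic, 15 oxidation and 8 collagen genes. Without EFAT replicates 11, 16 and 20, 348 genes were called, among them 43 respiratory chain, 11 thermogenic, 13 oxidation and 2 collagen genes. Cpt1b differed by -6.09 ± 0.88 (adjusted p = 0.00086) and, without replicate 11, by -4.26 (adjusted p = 3e-04), Dio2 by -8.09 ± 1.35 (adjusted p = 0.0017) and -6.72 (adjusted p = 0.0047), and Cidea by -6.33 ± 1.15 (adjusted p = 0.0026) and -3.26 (adjusted p = 0.0015). For Ucp1, whose EFAT level was set by replicate 11, the difference was -13.53 ± 2.52 (adjusted p = 0.003) with it and -2.33 (adjusted p = 0.88) without it. Slc27a2, a fatty acid transporter, differed by -6.14 ± 0.88 (adjusted p = 0.00086), and Thbs2 by 3.56 ± 0.57 (adjusted p = 0.0012), its SFAT difference being 0.53. Rnase10 (9.84 ± 2.10, adjusted p = 0.0069) and Gcnt4 (5.38 ± 1.31, adjusted p = 0.016) were more positive in EFAT, and without replicates 11, 16 and 20 they were at 1.05 (adjusted p = 0.65) and 1.34 (adjusted p = 0.41). Hydin at 4.79 ± 1.14 (adjusted p = 0.015) and Gramd2 at 4.62 ± 1.00 (adjusted p = 0.0077) completed the largest positive differences. In the fit of the EFAT libraries, 3 of these genes were not called for genotype on CysF. They were Slc27a2 (0.55, adjusted p = 0.72), Hydin (1.08, adjusted p = 0.49) and Gramd2 (0.92, adjusted p = 0.42).

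Against brown fat, the EFAT minus BAT difference was called for 3341 of 17563 genes (19.0%), 1478 more positive in EFAT and 1863 more negative. Triglyceride assembly genes were called in 11 of 16, all more negative in EFAT, and 9 without replicate 11. Dgat2 differed by -4.51 ± 0.51 (adjusted p = 2.1e-05) and Mogat2 by -5.16 ± 1.31 (adjusted p = 0.0096). Matrix genes were called 13 times more positive and 5 times more negative, and 8 of 24 interferon genes were more positive. Without EFAT replicates 11, 16 and 20, 6 matrix genes were more positive and 4 more negative, and 4 interferon genes were more positive. Of thermogenic genes 2 were more positive and 10 more negative, and without replicate 11, 2 and 3. Ucp1 went from -7.65 ± 2.27 (adjusted p = 0.023) to 3.53 (adjusted p = 0.39) and Dio2 from -5.39 ± 1.29 (adjusted p = 0.007) to -4.03 (adjusted p = 0.028) without that library. Hephl1 differed by -4.56 ± 1.55 (adjusted p = 0.044) and, without it, by -3.95 (adjusted p = 0.096). The largest positive differences were those of Fam179a (7.83 ± 2.40, adjusted p = 0.029), Tnnt2 (6.70 ± 1.83, adjusted p = 0.015), Aqp4 (6.16 ± 1.86, adjusted p = 0.025), Ano5 (6.14 ± 1.75, adjusted p = 0.019) and Ldb3 (5.63 ± 0.92, adjusted p = 4e-04). In the same fit the BAT differences of these genes were -7.31, -5.66, -5.53, -5.70 and -3.68, while in the fit of the EFAT libraries Ldb3 alone of them was called for genotype on CysF (2.05 ± 0.36 with an adjusted p of 0.00074). Tnnt2 and Ldb3 encode proteins of the contractile apparatus of striated muscle. The skeletal muscle list had a median difference of -4.65 in BAT and -2.29 in EFAT, and the part of muscle transcripts in these values was not tested. In the fit of the EFAT libraries, the median of that list was -1.83 with all libraries and -0.25 without replicate 11. With the exclusion of replicates 11, 16 and 20, Tnnt2 (adjusted p = 0.056), Aqp4 (0.051), Ano5 (0.061), Mogat2 (0.063) and Dio2 (0.087) were not called. In EFAT, Aqp4, a water channel, was at 8.37, 9.03, 0.858 and 0 CPM in Cth+/+ and 8.42, 7.33, 6.63 and 7.95 CPM in Cth-/-, so that Cth+/+ replicates 10 and 11 were far below 7 and 8. Without replicate 11, 2474 genes were called.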

How the data were processed

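RNA of 16 visceral fat libraries (2 genotypes, 2 diets, 4 libraries each) was analysed, with SFAT and BAT CysF libraries for the depot differences. The deposited values are expected counts per gene from RSEM, per the file headers and labels. FastQC, STAR and Picard and the build mm10 are named in the submitters' processing notes, without versions (not given in the sources used here). The expected counts, 7.00% to 7.98% of them not whole, were rounded. Reads that could come from several genes are divided by such an estimate, which affects similar copies.

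Genes were kept by filterByExpr (minimum count 10, minimum total 15), scaled by TMM and tested with edgeR 4.0.16 (limma 3.58.1, R 4.3.3), 1 fit over the 16 visceral libraries in 4 groups for genotype on each diet and for the interaction, and 1 over the 24 CysF libraries for depot differences. Calls are at an adjusted p under 0.05. Standard errors are the fold change divided by the root of the quasi-likelihood F. DESeq2 1.42.0, other scalings and filters, the library set, and leaving out libraries were alternatives. Python 3.11.15, pandas 2.3.3 and matplotlib 3.10.9 made tables and figures. On simulated counts for the main comparison, 100 genes were changed at each fold. There, the test recovered 84% at a log2 fold of 2 and 61% at 1, with 7 false calls among 16930 genes. The number of false calls in the real libraries, with their library sets and transcripts of other tissues, was not tested.

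Named were Cth, 24 genes of the questions asked, up to 4 members per list chosen by size of change (mean of 1 CPM or more), some that did not pass, the 10 largest rises and falls, and the 5 largest each way per difference (mean of 5 CPM or more). Cry1, Tef, Gpr160, Dtx4, Osgin1 and further list members given as examples were picked with their values in view. Some genes that the rule names are not reported here. The comparison, lists and rules were chosen with earlier results of these data known. Coordinates are from the GENCODE annotation of GRCm38. Depth was 18.7 to 32.4 M reads per library.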

Additional observations from a re-analysis of the deposited data

Results flagged for a closer look

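Among the named genes and marker sums, 114 groups of 4 libraries were searched for a library far from the other 3, and 10 held one. By its nominal rate, the cutoff used is passed by chance in about 1 in 20 groups of normally distributed values. That rate was not checked for these levels, some of which lie near 0. In Cth+/+ CysF, replicate 11 stood apart for Ucp1 (182.9 CPM), Cidea (57.1 CPM) and Elovl3 (11.9 CPM), the library with the highest sums of brown fat and muscle markers, and replicate 10 stood apart for Mycl (10.5 CPM). In Cth-/- CysF, replicate 17 stood apart for Ucp1 (1.58 CPM) and Elovl3 (0.0492 CPM), replicate 20 for Lep (44.2 CPM), replicate 16 for Fkbp5 (258.1 CPM) and Zim1 (64.6 CPM), and replicate 18 for Mmp11 (82.1 CPM). The Elovl3 value of replicate 17 lies near the floor.

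The genotype difference itself differed between diets for 1792 genes, between EFAT and SFAT for 1485 and between EFAT and BAT for 3341. Between diets, the interaction was -2.94 for Lep, 1.09 for Pnpla2, -3.79 for Dgat2, 2.15 for Chac1, -2.09 for Col1a1 and -3.14 for Col3a1. It was -5.79 for Mogat2, -4.26 for Odf3l1, -3.99 for Wfdc21 and -3.82 for Col15a1, and 5.17 for Teddm2, 5.05 for Acsm3, 4.42 for Zim1, 3.77 for Cyp2f2 and 3.55 for Thbs2.

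Between EFAT and SFAT, the difference of log2 fold changes was -13.53 for Ucp1, -8.09 for Dio2, -6.33 for Cidea, -6.14 for Slc27a2, -6.09 for Cpt1b, 9.84 for Rnase10, 5.38 for Gcnt4, 4.79 for Hydin, 4.62 for Gramd2 and 3.56 for Thbs2. Between EFAT and BAT it was -7.65 for Ucp1, -5.39 for Dio2, -5.16 for Mogat2, -4.56 for Hephl1, -4.51 for Dgat2, 7.83 for Fam179a, 6.70 for Tnnt2, 6.16 for Aqp4, 6.14 for Ano5 and 5.63 for Ldb3.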

How the results depend on the processing

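The main count of 6841 called genes was 3613 with adjustment for the library set and 85 over set A libraries alone, and leaving out 1 library at a time gave 5482 to 7414. Without replicates 11, 16 and 20, an alternative chosen after seeing the data, it was 4345. The split of 3459 higher and 3382 lower became 2441 and 3753 with no low-count filter and 2226 and 3183 in a fit of the 8 libraries alone. On CTRL the 8 calls became 41 with DESeq2, 3 in a fit of the 8 libraries compared, 3 with the set as a term, 0 over set A and 2 to 6 with 1 library left out. The 1792 interaction calls became 1002 with no filter, 2896 with DESeq2, 57 with the set as a term, 3 over set A and 714 (without Cth+/+ CTRL replicate 4) to 3414 (without Cth-/- CysF replicate 16) with 1 library left out. EFAT minus SFAT calls went from 1485 to 2492 with DESeq2, to 2247 over all 48 libraries, and to 687 (without EFAT Cth+/+ CysF replicate 11) to 2908 (without SFAT Cth+/+ CysF replicate 11) with 1 library left out, and EFAT minus BAT calls, 3341 as reported, were 4085 with DESeq2, 4188 over all 48 libraries and 2446 to 3773 with 1 library left out. Without replicates 11, 16 and 20, 348 and 1691 depot calls were made.

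Among the called named genes, signs turned for 8. Without replicates 11, 16 and 20, Cidea was at 0.32, Cpt1b at 0.13, Gcnt4 at -0.01, Adam7 at -2.09 and Crisp1 at -0.61, and without 16 and 20 alone, Adam7 at -1.69 and Crisp1 at -0.18. Over set A libraries alone, Emcn was at -0.28, Dnajb9 at -0.16 and Cyp2f2 at -0.63. The cause was not tested.

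No paired analysis was possible within EFAT because the 2 groups compared share no replicate number. Across depots, the number as a replicate block gave 3887 calls for EFAT minus SFAT and 5275 for EFAT minus BAT. Deviations of same-numbered libraries correlated at -0.08 to 0.51 for EFAT and SFAT (6 of 8 pairs over 0.1, 6 of 8 best with their own number). For EFAT and BAT they correlated at -0.06 to 0.30 (4 and 3 of 8). The labels do not tie a number to an animal across depots, and these correlations do not settle it. Not every pair was over 0.1, the condition set for pairing, so the depot calls reported above (1485 and 3341) are without the block. Genes under about 10 reads per library were not tested, which limits statements on Ucp1 and other scarce transcripts.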

Other observations

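Further lists held called genes in visceral fat on the cystine-free diet, to be read against the 20.1% higher and 19.6% lower over all genes. Of 14 genes of growth hormone and STAT5 signalling, 4 rose and 3 fell: Cish, a feedback inhibitor that STAT5 induces, rose by 2.30 ± 0.36 and Igfbp3, an IGF binding protein, by 1.33 ± 0.19, while Igfals, the acid-labile subunit of the circulating IGF complex, fell by 2.14 ± 0.35 and Bcl6, which STAT5 represses, by 1.63 ± 0.44. Bcl6 was not called without replicates 16 and 20 (adjusted p = 0.11). Of 10 genes of creatine and calcium cycling, 3 fell, among them the creatine synthesis genes Gamt (-2.28 ± 0.33) and Gatm (-1.26 ± 0.27). Of 24 interferon genes, 6 fell, Oas1a by 1.59 ± 0.34, and 2 rose, and 10 fell without replicate 16 and 3 with adjustment for the library set. Of 5 red blood cell genes, 4 fell, Hbb-bt by 1.81 ± 0.32, and without replicates 16 and 20, 1 fell.

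Of 10 T and NK cell genes, 2 rose, Cd3e by 1.77 ± 0.49 and Klrb1c by 2.35 ± 0.59, at means of 1.83 and 5.79 CPM over the 8 libraries. The summed list was at 49.2, 14, 16.1 and 8.88 CPM in Cth+/+ and 17.8, 89.2, 20.1 and 43.5 CPM in Cth-/-, so that the groups overlapped, with replicate 17 highest. Neither gene was called without replicates 11, 16 and 20 (adjusted p = 0.072 for Cd3e and 0.11 for Klrb1c) or with adjustment for the library set (0.21 and 0.08). Of 10 neutrophil and mast cell genes 1 fell, S100a8 (-1.97 ± 0.47), and it was not called without replicates 11, 16 and 20 (adjusted p = 0.071). Of 6 Schwann cell genes, 2 rose (Cdh19 among them) and 2 fell (Mbp and S100b). Without replicate 11, Cdh19 (adjusted p = 0.079), Mbp (0.058) and S100b (0.11) were not called.

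The 4 Cth-/- libraries on the control diet were not alike. In replicates 12, 13, 14 and 15, Fasn was at 23710, 4438, 21640 and 2721 CPM, Dgat2 was at 4868, 1654, 4378 and 957 CPM, Ighm was at 997, 311, 943 and 197 CPM and Peg3 was at 66.3, 256, 59.1 and 193 CPM. Replicates 13 and 15 lay nearer to the Cth-/- CysF libraries than replicates 12 and 14 for these 4 genes, and the labels give no difference between them. These values bear on the interaction, whose spread includes them.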
